A study of Mus musculus with 4 samples.

Results

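Of 768919 tiles of 1 kb on the autosomes that were deep enough in all 4 libraries, 4 had a lower CpG methylation level in Tet1 knockout (KO) than in wild type (WT) brain under both maternal folic acid diets. The tiles were chosen by these differences themselves: KO minus WT, over summed reads, of -15 percentage points or lower at 30 ppm and at 3 ppm. A tile was deep enough with 3 or more CpGs of at least 5 reads in every library and at least 100 summed reads in every library. The 4 tiles lay in Tet1 on chromosome 10, near the major urinary protein pseudogene Mup-ps19 on chromosome 4, in Hecw1 on chromosome 13 and near the vomeronasal receptor gene Vmn2r111 on chromosome 17, and are called by these names. Since the differences chose the tiles, they are given as a description and were not tested.

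Whole genome bisulfite sequencing (WGBS) was done on embryonic brain of 4 male mouse embryos at E11.5, a stage of embryonic development counted in days, 1 library per group. The strain was labelled 129S6.cg Tet1<tm1Koh>, a KO allele from C57BL/6 (B6) mice brought by repeated backcrossing into 129S6, with a construct placed at the first coding ATG of Tet1. The groups were KO and WT embryos of dams on 30 ppm folic acid (excess) and KO and WT embryos of dams on 3 ppm (control), all dams being Tet1 heterozygous and adapted to their diet before mating, and both diets holding succinylsulfathiazole, an antibiotic that limits folate from gut bacteria. The embryo codes in the labels name a different pregnancy for each library, and the study's list of embryos for its reduced representation sequencing gives a neural tube defect (NTD) under both KO codes and a normal phenotype under both WT codes. With no replicate libraries, values are given without an SD, and differences between groups have no replicate check. Every KO minus WT difference was also one between embryos with and without an NTD and between litters, and genotype, phenotype, litter and embryo cannot be told apart. An autosomal CpG was read 13.2 times on average in KO and 14.3 times in WT under excess folic acid, and 21.2 and 16.2 times under the control diet. At the start codon of Tet1 (chr10:62880012-62880014, minus strand), 3 CpGs 5 to 16 bases downstream in the coding sequence had 10 to 12 reads in the WT libraries and were listed in neither KO library, while the nearest CpGs on either side had 5 to 10 reads in the KO libraries.

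TET1 is a dioxygenase that oxidises 5-methylcytosine, a step toward replacing it with unmethylated cytosine. Bisulfite reads 5-methylcytosine and its oxidised form 5-hydroxymethylcytosine alike, so a methylation level here is the sum of both. Most CpGs of mammalian DNA are methylated, and unmethylated stretches mark promoters and other regulatory elements, with partly methylated CpGs along their edges.

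The stretch of 300 bases with the most qualifying CpGs in each tile is printed below to show how CpGs are spaced there. The stretches were chosen by the number of CpGs and not by the size of the loss. In the Vmn2r111 tile the CpGs with the largest losses at both diets, chr17:22520039 and chr17:22520306, lie outside the stretch. The sequences are those of the plus strand of the GRCm38.p6 reference at chr10:62864001-62864300, chr4:61968001-61968300, chr13:14369059-14369358 and chr17:22520390-22520689, and CpGs are in capitals.
Tet1 tile: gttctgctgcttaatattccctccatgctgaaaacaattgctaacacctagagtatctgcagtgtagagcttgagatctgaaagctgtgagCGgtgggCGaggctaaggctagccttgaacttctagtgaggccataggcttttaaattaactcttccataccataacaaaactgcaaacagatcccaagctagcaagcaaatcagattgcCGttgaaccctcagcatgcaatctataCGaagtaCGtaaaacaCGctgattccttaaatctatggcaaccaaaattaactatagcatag
Mup-ps19 tile: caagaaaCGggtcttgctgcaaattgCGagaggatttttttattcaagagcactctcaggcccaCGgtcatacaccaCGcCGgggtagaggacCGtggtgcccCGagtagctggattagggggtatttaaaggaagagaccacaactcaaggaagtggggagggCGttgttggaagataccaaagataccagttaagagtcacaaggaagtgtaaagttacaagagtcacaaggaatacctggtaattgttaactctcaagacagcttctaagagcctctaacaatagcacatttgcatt
Hecw1 tile: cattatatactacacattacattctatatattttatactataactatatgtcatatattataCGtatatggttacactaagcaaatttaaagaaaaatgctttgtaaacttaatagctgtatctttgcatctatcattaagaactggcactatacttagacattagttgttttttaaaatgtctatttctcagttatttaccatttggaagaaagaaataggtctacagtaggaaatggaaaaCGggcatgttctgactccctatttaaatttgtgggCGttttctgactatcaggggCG
Vmn2r111 tile: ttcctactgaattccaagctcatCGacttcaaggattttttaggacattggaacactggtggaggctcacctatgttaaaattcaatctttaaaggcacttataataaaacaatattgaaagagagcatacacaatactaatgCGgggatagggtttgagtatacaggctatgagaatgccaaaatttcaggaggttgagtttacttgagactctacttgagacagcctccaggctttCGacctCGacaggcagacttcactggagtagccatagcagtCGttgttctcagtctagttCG

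In the stretch shown from the Tet1 tile, 6 CpGs were methylated at 52.6% in KO against 85.3% in WT under the excess diet, and at 57.0% against 84.6% under the control diet. The 8 CpGs shown from the Mup-ps19 tile stood at 51.4% against 90.4% under excess, and at 70% against 84.2% under control folic acid. The 4 CpGs of the Hecw1 tile stood at 68.4% and 91.6%, and at 60% and 84.3%, in the same order. The 6 CpGs of the Vmn2r111 tile stood at 64.1% and 83.1%, and at 60% and 71.4%. In the Mup-ps19 and Vmn2r111 stretches the difference at 3 ppm was thus under 15 points, and the rest of the tile brought it past the limit.

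The number of tiles that were lower in KO at both diets was set beside the other sign patterns at the same limits. The 4 members were 0.00052% of the tiles. In 53 tiles (0.00689%) WT was lower at 30 ppm and KO was lower at 3 ppm, and in 14 tiles (0.00182%) KO was lower at 30 ppm and WT was lower at 3 ppm. In 5806 tiles (0.755%) KO was higher at both diets. At these limits losses shared by the diets were fewer than tiles of either opposite pattern, and gains shared by the diets were far more numerous. An opposite pattern needs a loss at one diet and a gain at the other, and gains were the commoner change at both diets. The opposite patterns are thus no measure of how many shared losses would arise without a common cause. With 10 reads per CpG the shared losses numbered 3, against 45 tiles with WT lower at 30 ppm and KO lower at 3 ppm but 2 of the reverse pattern, and without a minimum on summed reads they numbered 392, against 665 and 366. Tiles lower in KO at both diets numbered 8 with 3 reads per CpG, 7 after thinning to the shallowest library and 9 with tile borders moved by 500 bases, where 2 of the 4 members overlapped a passing tile. With a limit of 10 points, 160 tiles were lower in KO at both diets, against 768 and 252 of the opposite patterns, and with a limit of 20 points the Tet1 tile alone was lower at both diets, against 2 and 1.

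**Figure D1:**
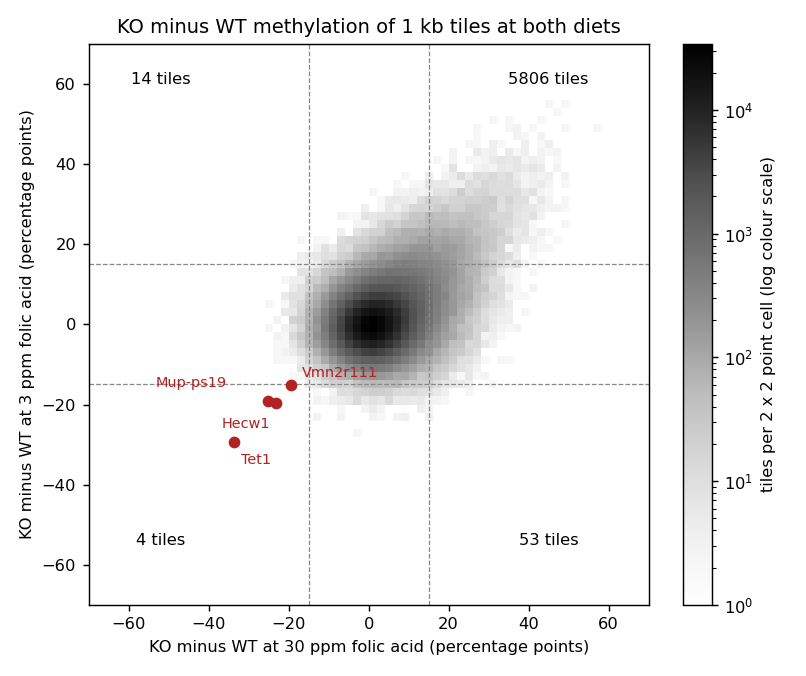
KO minus WT methylation at 30 ppm (horizontal) against 3 ppm (vertical), in percentage points, for the 768919 tiles; grey is the number of tiles per 2 by 2 point cell on a log scale and dashed lines mark 15 points. The 4 members (red) are the only tiles in the lower left corner, where 5806 tiles fill the upper right.

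**Figure D2:**
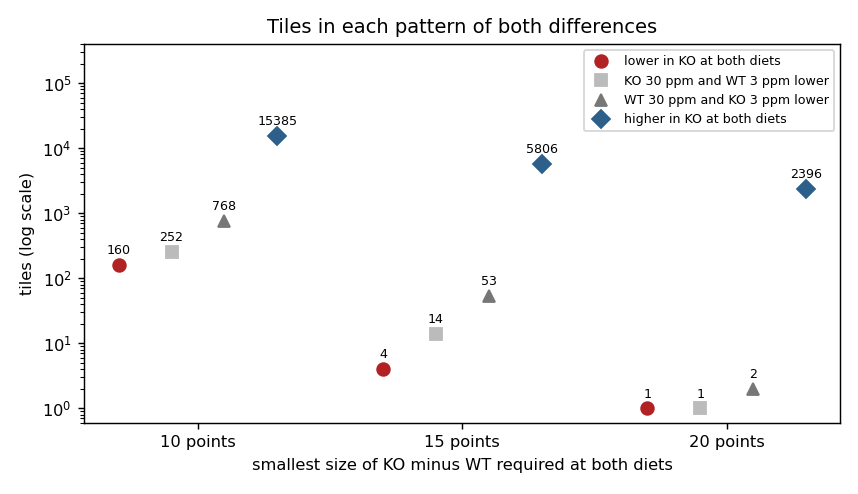
Number of tiles (log scale) in each sign pattern of the KO minus WT differences when both must reach 10, 15 or 20 points. The red points, tiles lower in KO at both diets, stand at 160, 4 and 1 and are not above either opposite pattern at any limit.

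Most losses of a single diet did not recur in the other. At 30 ppm 565 tiles (0.0735%) were lower in KO by 15 points or more, and 19436 (2.53%) were higher. At 3 ppm 596 tiles (0.0775%) were lower and 11760 (1.53%) were higher. The 565 tiles lower at 30 ppm had a median KO minus WT of 0.29 points at 3 ppm, where the median of all tiles was 0.16 points, and 46.7% of them were below 0 there, against 48.3% of all tiles. The 596 tiles lower at 3 ppm had a median of 3.64 points at 30 ppm, where the median of all tiles was 1.44 points, and 32.0% of them were below 0, against 36.2% of all tiles. Among the tiles higher in KO at 30 ppm the median at 3 ppm was 9.28 points, and 84.2% kept the sign of the difference, against 51.7% of all tiles above 0. Among those higher at 3 ppm the median at 30 ppm was 14.9 points, and 94.2% kept the sign, against 63.6% of all tiles. All tiles, with median levels of 88.1% to 89.4% in the 4 libraries, were not matched by level to the chosen tiles. These shares and medians thus need not compare like with like. The pairs of libraries at 30 ppm and at 3 ppm have no library in common.

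The Tet1 tile (chr10:62864001-62865000, 9 CpGs) had the largest loss. It was methylated at 38.3% in KO at 30 ppm (95% Wilson interval 30.1 to 47.3, 120 reads) and at 43.0% in KO at 3 ppm (36.1 to 50.2, 186 reads). WT stood at 72.0% at 30 ppm (64.6 to 78.3, 164 reads) and at 72.4% at 3 ppm (65.3 to 78.5, 174 reads). The KO level was thus different from WT by -33.6 points under excess and by -29.4 points under control folic acid. Both KO libraries were below both WT libraries. A read was counted at every CpG it covers, and these intervals cover counting error only.

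The tile lies inside the gene, 15012 bases downstream of the start codon, and holds intron and a short exon (chr10:62864808-62864861). A noncoding transcript model of Tet1, Tet1-202, starts 304 bases beyond the right border of the tile, at chr10:62865304, and runs leftward, toward the tile. The study found no full-length Tet1 transcript in KO brain at E11.5. It detected a short isoform from a downstream start at low levels in both WT and KO brain. Whether that start lies near the tile was not tested. All 9 CpGs were lower in KO at 30 ppm and 8 were lower at 3 ppm, where the first CpG stood at 50% in both genotypes. The CpG at chr10:62864239 was at 95% in WT against 33.3% in KO under excess folic acid and at 88% against 50% under the control diet. The last CpGs of the tile, at chr10:62864994 and chr10:62864998, were at 0% in both KO libraries and at 6.25% to 37.5% in the WT libraries, at the rim of an unmethylated stretch.

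The tiles beside it had opposite differences on the opposite sides of that stretch. The tile to the left (chr10:62863001-62864000, 8 CpGs) was at 56.2% in KO against 84.5% in WT under the excess diet and at 62.9% against 89.1% under the control diet, differences of -28.3 and -26.2 points, but had 73 reads in the KO library of the excess diet and so missed the read limit. The tile to the right (chr10:62865001-62866000, 14 CpGs), with the start of Tet1-202, was nearly unmethylated, at 6.45% in KO against 1.52% in WT under excess and 10.5% against 1.98% under control folic acid. The next tile (chr10:62866001-62867000, 9 CpGs) was higher in KO, at 83.6% against 63.8% under excess and 88.1% against 65.7% under control folic acid, a gain of 19.8 and 22.4 points. A run of CpGs was extended from the tile to both sides until a CpG was higher in KO at either diet. It reached from -1443 to 714 relative to the tile's centre and held 19 CpGs, with the 9 of the tile among them. That none of the 19 was higher in KO follows from how the run was drawn. Of these CpGs, 18 were lower at 30 ppm and 16 at 3 ppm. The tiles at 2 to 4 kb to the left differed by 10.2 points or less.

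**Figure D3:**
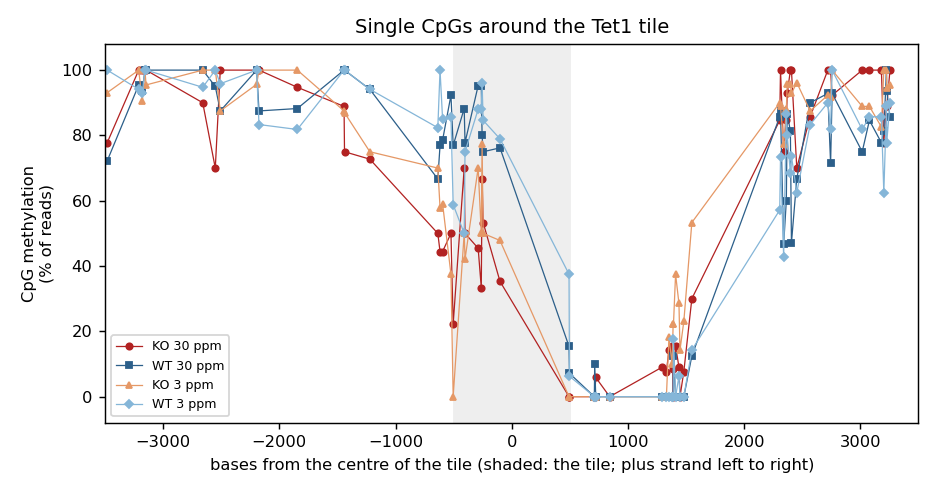
Methylation of single CpGs (percent of reads, vertical) against the distance in bases from the centre of the Tet1 tile (shaded), with 1 line per library. The range from -1443 to 714 bases was drawn so that no KO point (red, orange) in it lies above the WT point (blue) of its diet. The order is mixed farther left, and in the second tile to the right KO is higher at 8 of 9 CpGs under excess and at all 9 under control folic acid.

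The Mup-ps19 tile (chr4:61968001-61969000, 11 CpGs) stood at 61.1% in KO under the excess diet (51.8 to 69.5, 113 reads) and 67.7% in KO under the control diet (60.8 to 73.9, 195 reads). WT had 86.3% under excess (79.1 to 91.3, 124 reads) and 86.9% under control folic acid (80.1 to 91.7, 130 reads). The differences were -25.2 and -19.2 points, and both KO libraries were below both WT libraries. It is intergenic, 8090 bases from the pseudogene Mup-ps19, in a cluster of 25 Mup gene models within 1 Mb on either side, 14 of them pseudogenes; Mup genes encode lipocalins that carry pheromones in mouse urine. Of the 11 CpGs, 9 were lower in KO at both diets. The CpG at chr4:61968104 was at 33.3% in KO against 100% in WT under the excess diet but at 78.9% against 70% under the control diet, so single CpGs with 9 to 19 reads did not follow the tile. With at least 10 reads per CpG only 4 of its CpGs were left, and the difference at 30 ppm was -2.78 points against -23.7 at 3 ppm. The tile to its left was also lower in KO, with differences of -11.3 and -14.1 points, and the tile to its right had differences of -9.05 and -28.7 points over 3 CpGs and 30 to 58 reads per library.

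The Hecw1 tile (chr13:14369001-14370000, 5 CpGs) stood at 66.1% in KO under the excess diet (57.0 to 74.1, 115 reads) and 61.3% in KO under the control diet (51.8 to 70.04, 106 reads). WT had 89.3% under excess (81.9 to 93.9, 103 reads) and 81.0% under control folic acid (72.4 to 87.3, 105 reads). The differences were -23.2 and -19.6 points. It lies in an intron of Hecw1 (chr13:14226438-14523228, minus strand), which encodes a HECT-type E3 ubiquitin ligase. The CpG at chr13:14369337 had the largest difference at both diets, at 34.8% in KO against 77.3% in WT under the excess diet and at 23.5% against 78.9% under the control diet. A neighbouring CpG at chr13:14369357 stood at 61.9% against 95% and at 50% against 84.2%. The CpG at chr13:14369651, which was not used, was listed with 5 and 6 reads in the KO libraries and in neither WT library, and 2.14% of all tiles held at least 1 CpG listed in both KO libraries and in no WT library. Relative to the mean coverage of its library the tile had 1.75 times the reads per CpG in KO and 1.44 times in WT under excess folic acid, and 1.001 and 1.30 times under the control diet, within the range of the middle 95% of all tiles. After thinning all libraries to the depth of the shallowest the difference at 3 ppm was -12.7 points.

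The Vmn2r111 tile (chr17:22520001-22521000, 10 CpGs) was the member nearest the limit. It stood at 64.2% in KO under the excess diet (56.4 to 71.2, 159 reads) and 60.1% in KO under the control diet (53.3 to 66.5, 208 reads). WT had 83.6% under excess (76.7 to 88.7, 146 reads) and 75.1% under control folic acid (68.6 to 80.6, 197 reads). The differences were -19.4 and -15.03 points. It is intergenic, 23504 bases from Vmn2r111, a pheromone receptor gene of the vomeronasal organ, with 14 Vmn2r gene models within 1 Mb, 6 of them pseudogenes. All 10 CpGs were lower in KO at 30 ppm and 7 at 3 ppm. The CpG at chr17:22520039 had the lowest KO level at both diets, at 30.8% in KO against 76.5% in WT under the excess diet and at 36.8% against 70.6% under the control diet. With every CpG given the same weight the difference at 3 ppm was -14.5 points, so the tile then missed the limit.

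**Figure D4:**
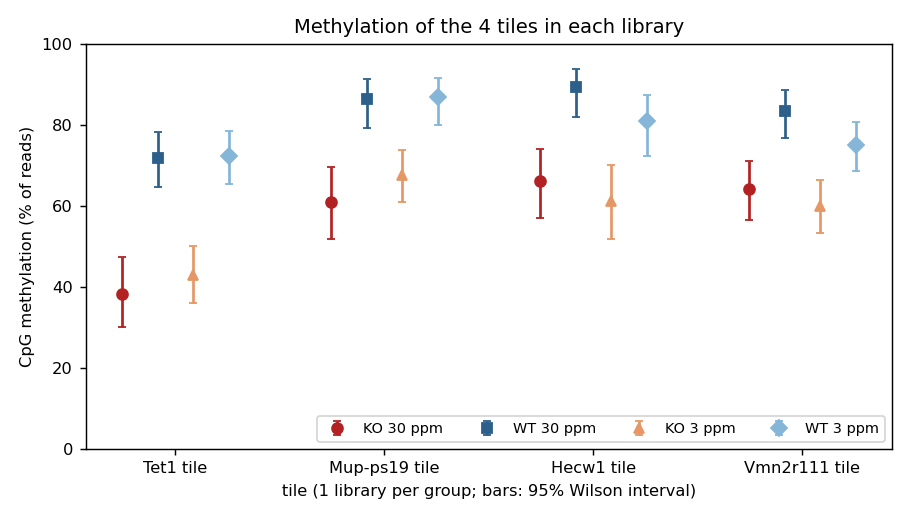
Methylation of the 4 tiles (percent of reads) in each library, with 95% Wilson intervals that cover counting error only. In every tile both KO libraries lie below both WT libraries, and the tiles were chosen for this order within each diet.

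**Figure D5:**
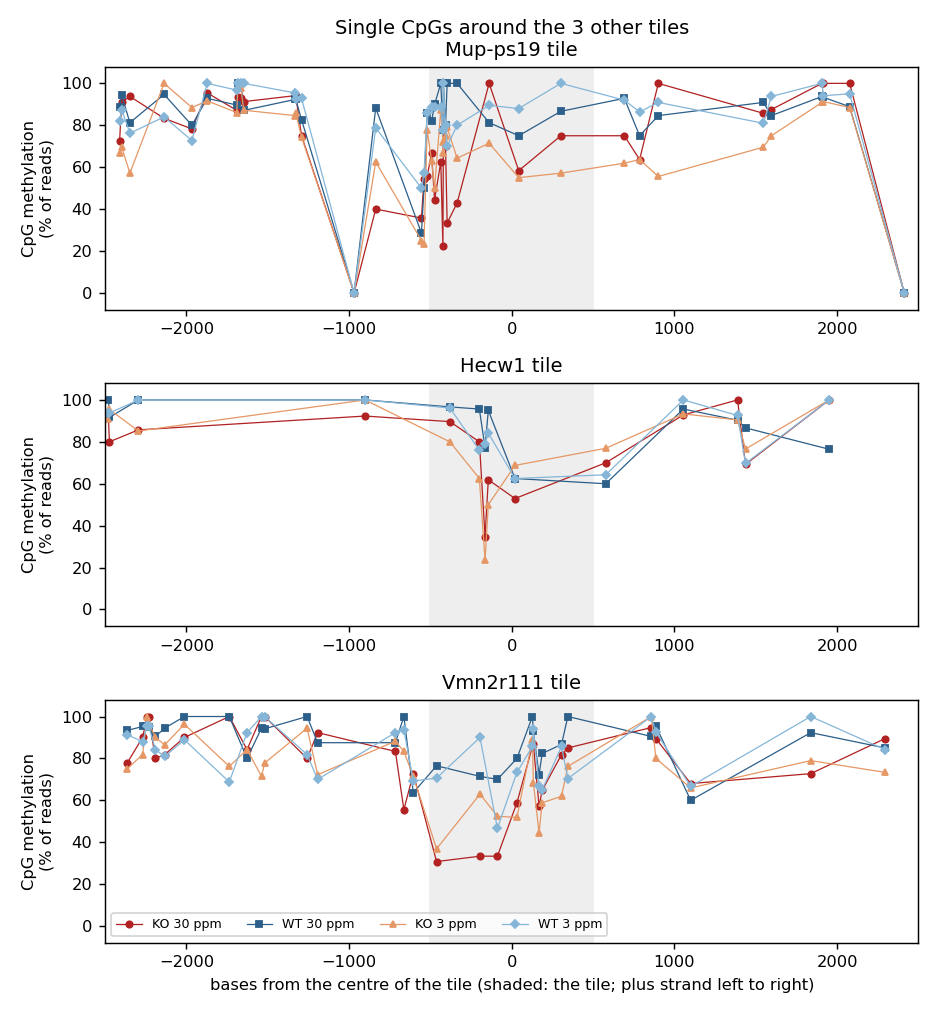
Methylation of single CpGs (percent of reads) against the distance in bases from the centre of the Mup-ps19, Hecw1 and Vmn2r111 tiles (shaded), with 1 line per library. The KO lines lie below the WT lines at 9 of 11, 4 of 5 and 7 of 10 CpGs used in the tiles at both diets, and the sums over these CpGs chose the tiles.

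Over all 4 members, 28 of 35 CpGs were lower in KO at both diets. The sums over these same CpGs chose the tiles, so the count describes the members and is no check of the loss. The 5 tiles nearest to the limit on its outer side were at -14.7 to -14.2 points in the diet with the smaller loss, and the members at -29.4 to -15.03 points. Of the 31 tiles with at least 3 CpGs within 5 kb of a member, 15 were lower in KO at both diets, 48.4%, against 22.4% of all tiles with 3 or more CpGs. Their median KO minus WT was -1.44 points at 30 ppm and -1.85 at 3 ppm, where those of all such tiles were 1.23 and -0.16. Without the neighbours of the Tet1 tile the medians were -3.33 and -6.30 points. Neighbouring CpGs can share reads with a member.

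The difference between the diets within a genotype comes from the same read sums that chose the tiles, and is given as a description. In KO, 30 minus 3 ppm was -4.68 points in the Tet1 tile, -6.63 in the Mup-ps19 tile, 4.77 in the Hecw1 tile and 4.05 in the Vmn2r111 tile. In WT it was -0.46, -0.63, 8.37 and 8.43 points. By Fisher's exact test with Benjamini-Hochberg adjustment over all tiles, a call needed an adjusted p under 0.05 and 10 points, and 0.221% of all tiles passed in KO and 0.187% in WT. No member reached 10 points, so none of the 4 was called in either genotype, and nothing is read from that count. The test compares 2 libraries and not the diets.

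The members were not rich in CpGs. They held 8 to 11 CpGs in the reference and a GC content of 38.4% to 42.8%, against medians of 11 CpGs and 43.4% over all tiles and of 20 CpGs and 49.5% over the tiles higher in KO at both diets. None of the 4 lay in a CpG island or its 2 kb shores, where 18.5% of all tiles and 54.7% of the tiles higher in KO did. With only 4 members this count cannot set them apart from all tiles, and nothing is read from it. Their median level in WT was 82.2%, against 88.5% over all tiles and 42.7% over the tiles higher in KO. The WT levels entered the differences that chose the tiles. A loss past the limit needs a WT level high enough to fall, and a gain needs one low enough to rise. The comparisons with the tiles higher in KO, in CpGs, islands and level, thus need not compare like with like. From the centre of the tile, the nearest outermost start of a protein-coding gene was 44496 bases away for the Tet1 tile, 52982 for the Vmn2r111 tile, 85658 for the Mup-ps19 tile and 153728 for the Hecw1 tile. For the Tet1 tile this was the start of Tet1 itself, and an inner coding transcript model starts 15014 bases from the tile's border. Each lay on its own chromosome, and 2 of 4 were inside a protein-coding gene, as were 52.8% of all tiles.

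The content of repeated sequence differed between the members. Repeats masked in the reference made up 27.4% of the Tet1 tile, 62.8% of the Mup-ps19 tile, 55% of the Hecw1 tile and 47.5% of the Vmn2r111 tile, with a median of 18% over all tiles. Every 50-base word of the Tet1 tile occurs once in the genome, also with C read as T. The share of such words was 70.98% in the Mup-ps19 tile, 80.8% in the Hecw1 tile and 85.9% in the Vmn2r111 tile, and with C read as T it was 68.3%, 71.5% and 71.8%. Of 385 tiles taken at regular steps, 267 had no repeated word. The 5th percentile of their shares was 72.5%, above that of the Mup-ps19 tile, and with C read as T it was 62.5%, below all members. The most frequent word occurs 4368 times in the genome for the Hecw1 tile, 124 times for the Mup-ps19 tile and 10 times for the Vmn2r111 tile. The part of reads from other copies in the lower KO levels was not tested.

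The KO allele came from B6 mice and the reference genome is that of B6, so CpGs seen in only 1 genotype were counted around the members. Covered here means 5 or more reads, and in no library of a genotype means listed in neither. Listed CpGs had 2 reads or more, so a CpG that was not listed may still have been read. CpGs covered in both KO libraries and in no WT library were counted first. Within 1 Mb on either side they were 0.555% of the CpGs covered in both KO libraries at the Tet1 tile, 0.442% at the Mup-ps19 tile, 0.476% at the Hecw1 tile and 0.47% at the Vmn2r111 tile, against 0.425% over the autosomes. The order changed with the window. Within 5 Mb the share was 0.446% at the Tet1 tile and 0.713% at the Vmn2r111 tile, with 0.407% and 0.356% at the Mup-ps19 and Hecw1 tiles, and within 10 Mb it was 0.428%, 0.589%, 0.37% and 0.296%. CpGs covered in both WT libraries and in no KO library were 0.129% over the autosomes, and within 1 Mb 0.0564% at the Tet1 tile, 0.0867% at the Mup-ps19 tile, 0.142% at the Hecw1 tile and 0.179% at the Vmn2r111 tile. Within 5 Mb this share was 0.0991% at the Tet1 tile, 0.116% at the Mup-ps19 tile, 0.114% at the Hecw1 tile and 0.169% at the Vmn2r111 tile. Within 10 Mb it was 0.111%, 0.114%, 0.107% and 0.149% in the same order. No member held a CpG at 10% or lower in both libraries of 1 genotype and at 80% or higher in both of the other, but over all tiles such CpGs were also rare, with 310 tiles (0.0403%) holding one that was low in WT and 0 holding one that was low in KO, so nothing about the members is read from their count. The part of sequence differences between the strains in the Tet1 tile was not tested.

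Among the genes of methylation, metabolism and cell type lists, Tet1 was the only gene that held a member. Over all 20780 protein-coding genes 2 held one. Tet1 is also the gene that the KO allele targets, so nothing about the lists is read from this count. Of 14 writers and erasers of DNA methylation, which include the Tet and Dnmt genes, 11 promoters (1 kb on either side of the start) were measured, and none was lower in KO at both diets, with median differences of 4.02 and 3.65 points. Of 34 promoters of folate and methyl metabolism none was lower in KO at both diets, and of 44 imprinted promoters 4 were, none of them by 15 points at both. Of 27 promoters of germline genes, which are kept methylated outside the germline, 10 were lower at both diets, with medians of -0.56 and -0.61 points and none by 15 points. Germline promoters had median levels of 87.0% to 89.2% in the 4 libraries, against 33.5% to 41.8% over all 16563 promoters of protein-coding genes. Their shares of lower promoters thus do not compare like with like. Over all these promoters the median differences were 3.99 and 3.39 points, near those of the writers and erasers. Of them 1314 were lower at both diets, 0 by 15 points at both and 626 higher by 15 points at both. Promoters of blood, endothelial, mesenchymal, neural progenitor and neuronal markers held 0 with such a loss. The progenitor promoters, of genes expressed in embryonic brain, had median levels of 1.62% to 2.83% in the 4 libraries, against 3.79% to 5.71% for mesenchyme, 20.6% to 28.0% for early neurons, 77.2% to 85.8% for endothelium and 83.1% to 88.7% for blood.

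The authors' own lists of regions with lower methylation in KO were set beside the tiles. They were called between the same single libraries whose differences chose the tiles, so an overlap with a member is no separate check of it. The list at 30 ppm overlapped the Tet1 tile by 246 bases and the Mup-ps19 tile by 104 bases. The list at 3 ppm overlapped no member. Of the 54 regions listed at 30 ppm 1 overlapped a region listed at 3 ppm, which is 1.85% of that list and 1.75% of the 57 regions at 3 ppm. The overlapping regions with lower methylation were chr10:59381809-59383400 at 30 ppm and chr10:59383164-59383400 at 3 ppm, which share 237 bases. Both end 3480601 bases from the Tet1 tile and held no CpG with 5 reads in all libraries, so no member could arise there. Over the 15 CpGs of the shared bases the mean depth was 5.47 reads in KO against 1.6 in WT under excess folic acid, and 14.2 against 5.67 under the control diet. Of the 42 autosomal regions listed as lower at 30 ppm, 11 had 3 or more qualifying CpGs and could be scored at 3 ppm. Of these 6 were lower in KO, 54.5% against 48.3% of all tiles. Of the 50 autosomal regions listed as lower at 3 ppm, 8 could be scored at 30 ppm and 3 of these were lower, 37.5% against 36.2% of all tiles. Both shares are near those of all tiles, and nothing is read from them. Of the regions with higher methylation in KO, 44.5% of 4436 and 44.0% of 4437 overlapped the list of the other diet.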

How the data were processed

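According to its methods section, WGBS reads were trimmed by the authors (Trim Galore 0.6.10), who aligned them to GRCm38.p6 with Bismark 0.23.1, removed duplicates and merged both strands of a CpG. The deposited tables give, per CpG and library, the fraction of methylated reads and the count of reads, which the authors did not normalise; their product was within 4.37e-11 of a whole number and was rounded to methylated reads. All 18974562 autosomal CpGs listed lay on a CG of the reference. The authors also deposited regions called with DSS, whose minimum difference, CpG number and length they set; only the positions in the KO versus WT lists were used here.

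Methylated and total reads of CpGs with 5 or more reads in all libraries were summed per 1 kb tile. Reads counted at several CpGs are not independent, and no molecular identifiers were used, so intervals (95% Wilson) and p-values can be too narrow or too small. KO minus WT chose the members and was not tested. Diets were compared within a genotype by two-sided Fisher's exact test (own code, numba 0.67.0), adjusted over 768919 tiles and tested on simulated data. CpG islands came from the sequence, repeats included (over 200 bases, GC 50%, observed over expected CpG above 0.6), genes from GENCODE M21. Members, named genes and the 9 gene lists were chosen with earlier results of these data known. The rule named the members with the lowest mean difference and 5 or more CpGs, members in Tet1, at a coding gene's start or in a listed gene, and tiles beside the limit; no member lay within 1 kb of a coding gene's start. The CpGs at the start codon, the run of CpGs around the Tet1 tile, the word counts, the windows around members and the scores of the authors' lists were added after the values were seen. Alternatives were read, CpG and difference minimums, CpG weighting, thinning, tile borders, SNP-like CpGs and island rules.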

Additional observations from a re-analysis of the deposited data

How the results depend on the processing

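Of 61 values computed under alternatives, 39 were unchanged, within 1.5 times the count or, for the medians of neighbouring tiles, within the error. That error was the median counting error of a single neighbouring tile's difference, which is wide. Without the neighbours on chromosome 10 the medians went from -1.44 to -3.33 points at 30 ppm and from -1.85 to -6.30 at 3 ppm, and were still counted as within it. The counts of tiles lower in KO at both diets, with WT 30 ppm and KO 3 ppm lower, with KO 30 ppm and WT 3 ppm lower and higher in KO at both diets were 160, 768, 252 and 15385 at a limit of 10 points, 1, 2, 1 and 2396 at 20 points, 392, 665, 366 and 13216 without a minimum on summed reads, and 0, 4, 1 and 1522 at 200 summed reads, where no member was deep enough. Members numbered 8 with 3 reads per CpG, 7 after thinning and 9 with tile borders moved by 500 bases. With 10 reads per CpG the 4 counts were 3, 45, 2 and 2684, of fewer tiles tested. There and without a minimum on summed reads, shared losses outnumbered tiles with KO 30 ppm and WT 3 ppm lower, which they did not at the main limits. With differences taken within a genotype, 98 tiles had WT 30 ppm and KO 3 ppm lower. Of the 4 members, 4 passed with 3 reads, with 5 CpGs or without SNP-like CpGs, 3 with equal CpG weights or after thinning, and 2 with 10 reads; with moved borders 2 overlapped a passing tile. The Tet1 tile passed or was overlapped in each of these and was the 1 left at 20 points. Below 100 summed reads, where counting error is larger, 388 tiles were lower in KO at both diets, against 612 and 352 of the opposite patterns. KO minus WT chose the tiles, so no model paired by diet was fitted.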
